A study of Schizosaccharomyces pombe with 6 samples.

Results

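The genes described here encode MBF, the transcription complex that switches on the G1/S genes of fission yeast (Schizosaccharomyces pombe), together with its coactivators and corepressors. They are 7 genes chosen by identifier, out of 7269 counted features: cdc10 (SPBC336.12c.1), res1 (SPBC725.16.1), res2 (SPAC22F3.09c.1), rep1 (SPBC2D10.06.1), rep2 (SPBC2F12.11c.1), nrm1 (SPBC16A3.07c.1) and yox1 (SPBC21B10.13c.1). Their RNA was measured by RNA-seq in 6 libraries from haploid cells of 2 genotypes. The mutant group, with 3 biological replicates, carries the sad1.2 allele and a deletion of csi1 (sad1.2 csi1Δ), and the wt group, also with 3, carries neither. Sad1 is an inner nuclear membrane protein at the spindle pole body and Csi1 links centromeres to it, and the study used the strain to ask how loss of centromere clustering affects gene expression. All cultures (30 mL) were vegetative and asynchronous, in rich medium at 30 °C, and were harvested in exponential growth at an optical density of 0.5. The labels do not say whether the mutant replicates come from 1 clone, and the single mutants were not analysed here.

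MBF binds MluI-type motifs in the promoters of genes needed for DNA replication. Cdc10, an ankyrin-repeat protein, is the essential subunit that does not itself contact DNA, and Res1 and Res2 are the related DNA-binding subunits. Res1 has its main role in the mitotic cycle, while Res2 is also needed in meiosis. Rep2 is a coactivator in mitotic cells and Rep1 acts in the replication round before meiosis. Nrm1 and Yox1 are corepressors that bind the complex when S phase is under way, and since their own genes are MBF targets they close a negative feedback loop. The replication checkpoint kinase Cds1 phosphorylates both and so keeps the targets on when replication stalls. Because the cultures were asynchronous, the share of cells in a phase of the cycle and the RNA per cell in that phase cannot be told apart in these values.

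Total counts per library lay between 19074531 and 19951875. The deleted gene csi1 had 210, 204 and 63 counts in mutant replicates 1, 2 and 3, against 1271, 1142 and 1225 in wt replicates 1, 2 and 3. It was thus lower in every mutant library, as the labels imply. The source of the csi1 counts that remain in the mutant was not tested, and these counts do not check the sad1.2 allele. Levels of sad1, which carries an allele and is not deleted, were 150.0, 160 and 148 CPM in the mutant and 81.3, 80.5 and 83.7 CPM in wt. A CPM is a count per 1000000 counts of the library, whose size was scaled by the TMM method. Wt replicate 2 and, less clearly, mutant replicate 3 stood apart from the other libraries of their genotype. The chi-square per degree of freedom between libraries of a genotype was 71.6 and 131 for pairs with mutant replicate 3, against 45.7 for the other mutant pair, and 138 and 107 for pairs with wt replicate 2, against 9.80 for the other wt pair. By these values mutant replicate 2 lay between mutant replicates 1 and 3. Mutant replicate 1 had the largest TMM factor of all libraries, 1.13. Over 4941 tested features their deviations from the genotype means also ran together, with r = 0.658 between these 2 libraries, as a description across genes.

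Each mutant library had more RNA of both corepressor genes than each wt library, while cdc10, res1 and rep2 overlapped between the genotypes. In the fit the mutant was 1.64-fold higher for yox1 and 1.29-fold higher for nrm1, and 1.40-fold and 1.71-fold higher for res2 and rep1, the subunit and the coactivator associated with meiosis (3 libraries each). None of the 7 genes passed the edgeR quasi-likelihood test at an adjusted p under 0.05, while 4 had an unadjusted p under 0.05, all of them higher in the mutant. Among all 4941 tested features 2.29% were called higher and 0.121% lower, and 14.5% were higher at an unadjusted p under 0.05. In the same 4 genes every mutant library lay above every wt library, which held for 16.7% of all tested features. All 7 genes were abundant enough to be tested, and their median log2 fold change was 0.37, against 0.00 over all tested features.

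**Figure D1:**
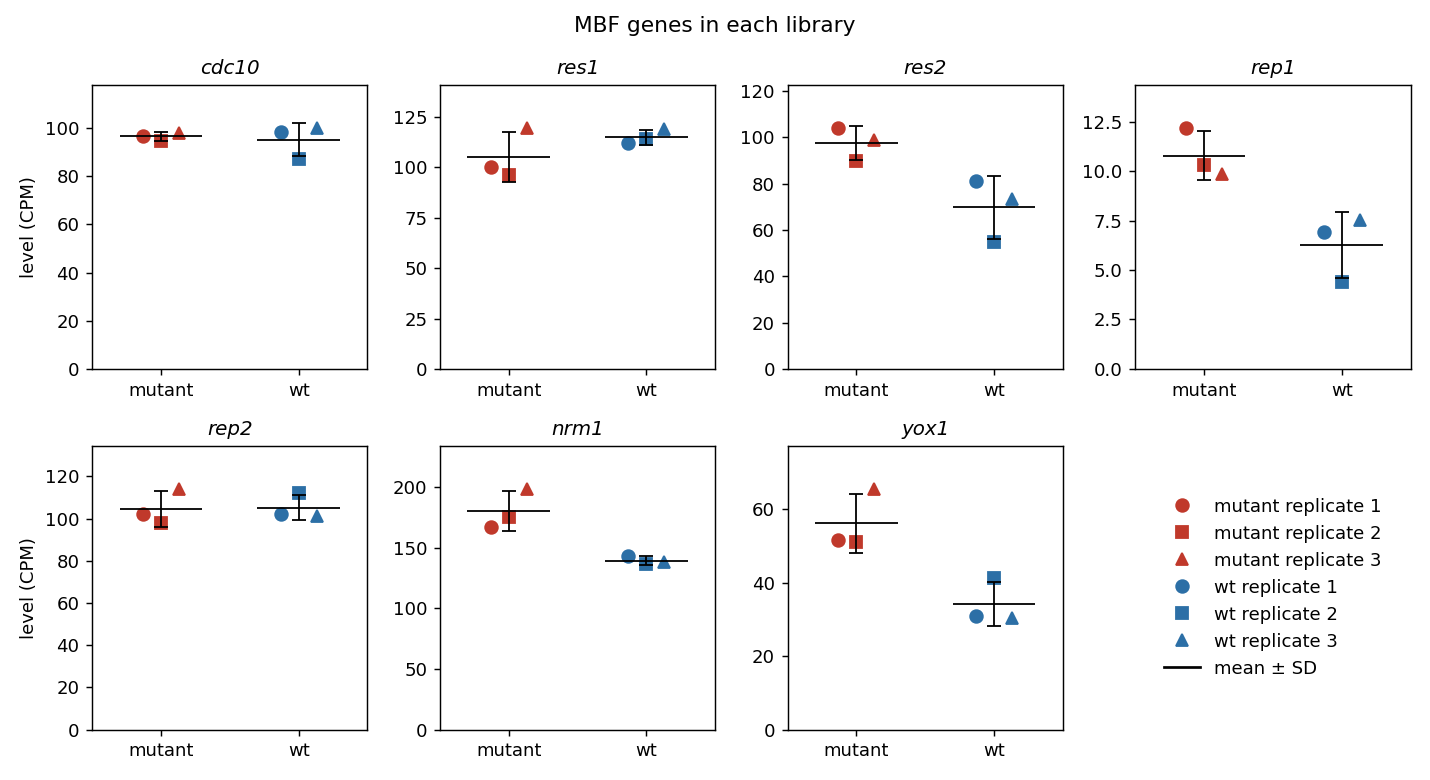
Level of each MBF gene (y axis, CPM, from 0) in the 3 mutant and 3 wt libraries, with the mean and SD of each genotype as black lines. The mutant and wt points do not overlap for res2, rep1, nrm1 and yox1, and overlap for cdc10, res1 and rep2.

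Cdc10 RNA was nearly level across the libraries. The gene stood at 96.8, 94.5 and 98.1 CPM in mutant replicates 1, 2 and 3 and at 98.3, 87.2 and 99.9 CPM in wt replicates 1, 2 and 3. The lowest value was in wt replicate 2 and the genotypes overlapped. The difference was 0.02 on the log2 scale (SE 0.0821; adjusted p = 0.916 in edgeR), and its 95% interval ran from 0.887-fold to 1.16-fold. Changes within these bounds cannot be told from 0.

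The genes of the DNA-binding subunits had log2 fold changes of opposite sign, and neither passed the test. Res1 had 100.2, 96.5 and 119 CPM in the mutant, against 112, 114 and 119 CPM in wt. Mutant replicates 1 and 2 lay below all wt libraries, and mutant replicate 3 lay level with the highest wt library. On the log2 scale the difference of res1 was −0.13 (SE 0.0998; adjusted p = 0.502 in edgeR; 95% interval 0.778-fold to 1.08-fold).

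Res2 had 104, 89.6 and 99.0 CPM in the mutant and 81.3, 54.7 and 73.2 CPM in wt. The genotypes did not overlap, and the lowest value by far was that of wt replicate 2. The difference was 0.48 on the log2 scale (SE 0.151; adjusted p = 0.136 in edgeR), with a 95% interval from 1.09-fold to 1.79-fold. Without wt replicate 2 the log2 fold change was 0.32 (edgeR adjusted p = 0.106).

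Per kb of transcript, res2 RNA equalled 1.202, 1.08 and 0.960 times the res1 RNA in mutant replicates 1, 2 and 3. In wt replicates 1, 2 and 3 the ratio was 0.841, 0.556 and 0.711. On this scale res1 lay above res2 in all 3 wt libraries and in 1 of the 3 mutant libraries. The order in the mutant depends on the length used, since per kb of coding sequence res1 averaged 55.1 CPM per kb and res2 49.4 in the mutant, against 60.1 and 35.3 in wt. Per kb of transcript the ratio of res2 to res1 averaged 1.08 ± 0.121 in the mutant and 0.703 ± 0.142 in wt (SD, n = 3 each), and no test was made of it because the genes were chosen with earlier results known.

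The coactivator genes differed widely in abundance. Rep2, the mitotic coactivator gene, had 102, 97.7 and 114 CPM in the mutant and 102, 112 and 101 CPM in wt. Its highest values were in mutant replicate 3 and wt replicate 2, the libraries that stood apart, and the genotypes overlapped. The difference was −0.01 on the log2 scale (SE 0.0901; adjusted p = 0.969 in edgeR; 95% interval 0.858-fold to 1.15-fold).

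Rep1 RNA was scarce. It had 273, 206 and 193 counts in mutant replicates 1, 2 and 3, against 137, 77 and 145 counts in wt. These amount to 12.2, 10.3 and 9.86 CPM in the mutant and 6.91, 4.40 and 7.54 CPM in wt. The genotypes did not overlap, with mutant replicate 1 highest and wt replicate 2 lowest. The difference was 0.78 on the log2 scale (SE 0.232; adjusted p = 0.125 in edgeR), and its 95% interval, from 1.17-fold to 2.50-fold, was the widest of the 7 genes.

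Other weakly expressed coding genes were also compared between the libraries. Over 72 of them that overlap no other feature and had a mean of 0.2 to 4 CPM per kb over all 6 libraries, the median level was 2.34, 1.38 and 1.08 CPM per kb in mutant replicates 1, 2 and 3 and 0.624, 0.614 and 0.798 CPM per kb in wt replicates 1, 2 and 3. The median gain of these genes over their wt mean was 1.10, 0.586 and 0.279 CPM per kb in mutant replicates 1, 2 and 3. Choosing the genes by the same range in wt alone, which favours a gain in the mutant, gave 76 genes and gains of 1.58, 0.870 and 0.485 CPM per kb. Rep1 gained 2.75, 1.89 and 1.67 CPM per kb in mutant replicates 1, 2 and 3, more than either median in each library. Its wt mean of 2.93 CPM per kb also lay above the weak-gene medians in wt, so a larger gain need not be a larger fold change. Rep1 had 5.69, 4.82 and 4.61 CPM per kb in mutant replicates 1, 2 and 3 and 3.23, 2.06 and 3.52 CPM per kb in wt replicates 1, 2 and 3. Its larger gain does not set rep1 apart from weak genes in general. Whether rep1 rose by a larger fold than these genes was not tested. With the larger median gain subtracted from each mutant library, the log2 fold change of rep1 was 0.53 (edgeR adjusted p = 0.285).

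Markers of meiotic cells were examined beside rep1. Of 6 listed, 3 were tested and 0 called by edgeR, against 2.29% of all tested features called higher. Of the 6, rec12, dmc1 and mde2 are listed at 0 in every library, as is psm3, a cohesin gene that growing cells need. A 0 in these files therefore does not show that a gene is silent. The other 3 (mei4, rec8 and spo5) were higher in every mutant library than in every wt library, as were 16.7% of all tested features. They did not pass (edgeR adjusted p = 0.0571, 0.155 and 0.111). All 3 were higher at an unadjusted p under 0.05, against 14.5% of all tested features, and DESeq2 called 2 higher, against 7.35%. The summed level of the list ran from 27.5 to 51.7 CPM in the mutant and from 11.2 to 19.5 CPM in wt. The median log2 deviation of the tested markers from their wt means was 1.49, 0.937 and 0.764 in mutant replicates 1, 2 and 3. That is the same order of libraries as for the weak-gene gains above. Whether these markers rose more than other weak genes was not tested, nor was their part in the rep1 result. The 4 markers of dividing vegetative cells (cdc2, cdc13, nda3 and act1) summed to between 4754 and 5283 CPM in the mutant and between 5369 and 5898 CPM in wt. Most of that sum was act1, an actin gene not particular to dividing cells, while cdc2, the cell-cycle kinase gene, averaged 75.2 CPM in the mutant and 88.6 CPM in wt. All 4 had negative log2 fold changes, with 0 called by edgeR, against 0.121% of all tested features called lower. At an unadjusted p under 0.05, 2 were lower, against 8.12% of all tested features.

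The corepressor genes gave the smallest p-values of the 7. Nrm1 was the most abundant member by CPM, with 167.3, 175 and 198 CPM in mutant replicates 1, 2 and 3 and 143, 137 and 138 CPM in wt. All mutant values exceeded all wt values, and the wt libraries lay close together. Nrm1 averaged 180.2 ± 16.2 CPM in the mutant and 139 ± 3.40 CPM in wt (SD, n = 3 each), a difference of 0.37 on the log2 scale (SE 0.0869; adjusted p = 0.0703 in edgeR; 95% interval 1.12-fold to 1.49-fold).

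Yox1, which encodes a homeodomain protein, had 51.7, 51.2 and 65.5 CPM in mutant replicates 1, 2 and 3 and 31.0, 41.2 and 30.4 CPM in wt replicates 1, 2 and 3. Mutant replicate 3 and wt replicate 2 were the highest library of their genotype, and the lowest mutant library still lay above wt replicate 2. The means were 56.1 ± 8.11 CPM in the mutant and 34.2 ± 6.04 CPM in wt (SD, n = 3 each), a difference of 0.71 on the log2 scale (SE 0.163; adjusted p = 0.0671 in edgeR; 95% interval 1.26-fold to 2.14-fold). Without wt replicate 2 alone the log2 fold change was 0.86 and passed (adjusted p = 0.0371), in a fit that called 1.65% of its features higher. With library size alone as the scaling, which also called 2.29% of features higher, nrm1 and yox1 passed too (log2 fold changes 0.49 and 0.84, adjusted p = 0.0379 for each), while the median over all features moved by over 0.1 to 0.13.

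Other fits placed some of these genes on the other side of the threshold. DESeq2, with 7.35% of all tested features called higher, called 3 of the 7: yox1, nrm1 and rep1, with adjusted p = 0.00247, 0.0118 and 0.0373. The authors' deposited table has the same 3 genes under 0.05, among 6.3% of its features called higher, with log2 fold changes of 0.60, 0.33 and 0.56 and adjusted p of 0.00305, 0.0252 and 0.0381. Res2 in the authors' deposited table had a log2 fold change of 0.39 and an adjusted p of 0.0795. The deposited log2 fold changes lay nearer 0 than those of the DESeq2 fit made here, which were 0.70, 0.36 and 0.76 for yox1, nrm1 and rep1. For csi1 they were −1.83 and −3.09. How the deposited values were estimated is not stated, so their sizes may not be like for like. The limma voom fit called 0 of the 7 genes, with adjusted p = 0.0709 for yox1 and 0.0815 for nrm1, and 1.6% of all tested features called higher. Without the libraries that stood apart, wt replicate 2 and mutant replicate 3, edgeR called yox1, nrm1, rep1 and res2 higher (adjusted p = 0.00228, 0.0247, 0.0356 and 0.0452) and res1 lower (log2 fold change −0.24, adjusted p = 0.0428). That fit rests on 2 libraries per genotype and called 14.3% of its features higher and 6.17% lower. The libraries were left out because they deviated, which lowers the spread within each genotype. Its adjusted p-values are therefore too small to be taken at face value.

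**Figure D2:**
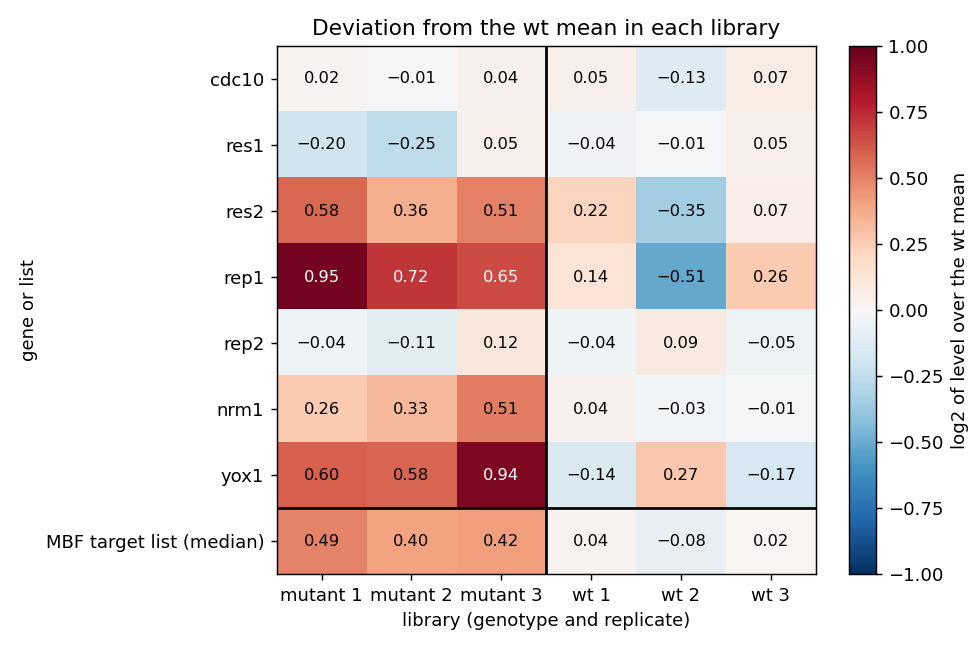
Log2 of each gene's level over its wt mean (colour and printed value) in every library (columns), for the 7 MBF genes and, in the bottom row, the median of the tested MBF targets. Wt replicate 2 stands low for res2 (−0.35) and rep1 (−0.51) and high for yox1 (0.27), while the target median lies between 0.40 and 0.49 in the mutant libraries and between −0.08 and 0.04 in the wt libraries.

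Corepressor RNA stood higher relative to cdc10, which was nearly level, so these ratios largely repeat the differences of nrm1 and yox1 given above. Per kb of transcript, nrm1 was at 2.00, 2.14 and 2.34 times cdc10 in mutant replicates 1, 2 and 3 and at 1.69, 1.82 and 1.60 times in wt replicates 1, 2 and 3. The yox1 ratio to cdc10 was 2.68, 2.72 and 3.35 in the mutant, against 1.58, 2.37 and 1.53 in wt. Neither ratio overlapped between genotypes. The res1 ratio to cdc10 did overlap, at 1.16 ± 0.117 in the mutant and 1.29 ± 0.0909 in wt (SD, n = 3 each).

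The order of the genes by level per length differed between the genotypes. In the mutant it ran yox1 (92.1 ± 13.3 CPM per kb), nrm1 (68.3 ± 6.13), rep2 (64.6 ± 5.23), res2 (39.3 ± 2.94), res1 (36.7 ± 4.29), cdc10 (31.5 ± 0.587) and rep1 (5.04 ± 0.572). In wt it ran rep2 (64.9 ± 3.63 CPM per kb), yox1 (56.1 ± 9.92), nrm1 (52.8 ± 1.29), res1 (40.0 ± 1.30), cdc10 (31.1 ± 2.27), res2 (28.1 ± 5.49) and rep1 (2.93 ± 0.775; SD, n = 3 throughout).

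Neighbours in that order were not always separate. In the mutant, nrm1 and rep2 overlapped between libraries, as did res2 and res1, and in wt rep2 overlapped yox1, yox1 overlapped nrm1, and cdc10 overlapped res2. Rep1 lay below every other member in all 6 libraries. The place of yox1 depends on the length used, because its annotated transcript of 609 nt holds little beyond the coding sequence of 606 nt. Per kb of coding sequence the order began with nrm1, rep2 and yox1 in the mutant (175, 158 and 92.6 CPM per kb) and with rep2, nrm1 and res1 in wt (159, 135 and 60.1 CPM per kb), where yox1 came next at 56.4. On that scale res1 lay above res2 in the mutant too.

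**Figure D3:**
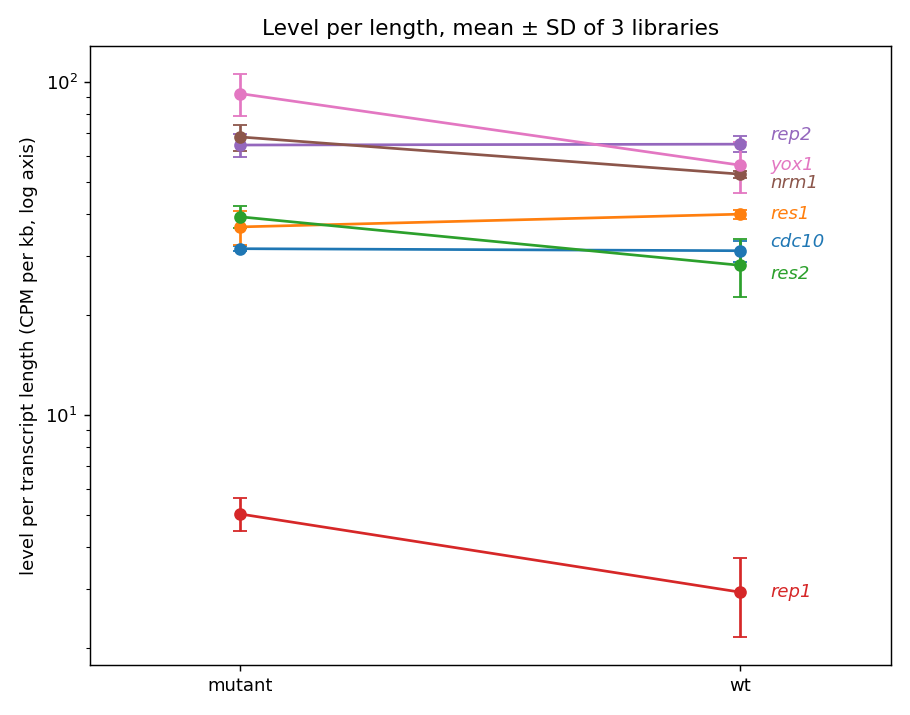
Mean level per kb of annotated transcript (y axis, log scale) of the 7 MBF genes in mutant and wt, with error bars for the SD of 3 libraries. Res2 lies above cdc10 in the mutant and below it in wt, and rep1 is lowest in both.

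The coding genes beside the members were compared as well. Of the members, 6 lie on chromosome II, and res2 lies on chromosome I. The nearest protein-coding genes on each side make 14 neighbours, of which 12 were tested, with 0 called by edgeR, where 2.29% of all tested features were called higher and 0.121% lower. Ura5, upstream of res1, was lower at an unadjusted p under 0.05, as were 8.12% of all tested features, and DESeq2 called it lower, as it did 3.08% of them. At these shares, the counts among 12 genes are not a result about the neighbours. Neighbour log2 fold changes ran from −0.40 to 0.14, with a median of −0.12. The RNA polymerase II subunit gene rpb1, upstream of yox1, had a log2 fold change of −0.01, and oga1, upstream of nrm1, one of −0.27.

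Of the members, 5 overlap a coding gene on the opposite strand at their 3′ side, and the counts are not stated to use strand. These partners are vps52 for cdc10, rrn11 for res1, mmp1 for rep1, mrpl35 for rep2 and tad1 for nrm1. Their log2 fold changes lay between −0.16 and −0.06, with 0 called by edgeR and 0 at an unadjusted p under 0.05. Tad1 averaged 4.40 CPM in the mutant and 4.91 CPM in wt, against 180.2 and 139 CPM for nrm1. Res2 and yox1 overlap no counted feature.

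Genes with the most similar course over the 6 libraries were found by the root mean square difference of log2 CPM, each gene centred on its own mean. The measure is a description, over libraries that include the 2 that stood apart. It is not scaled for the size of a gene's changes, so a gene with modest changes can lie near level genes. Of 4115 other genes at a mean of 10 CPM or more, yox1 was nearest to SPBC31F10.17c, an uncharacterized gene (difference 0.0678), and to the MBF target tos4 (0.0857). Tos4 shares the high value in wt replicate 2 and mutant replicate 3, with 593, 552 and 671 CPM in the mutant and 299, 404 and 304 CPM in wt.

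For rep1, the nearest genes were SPBC32F12.17 (0.0922) and whi5, annotated as a cell cycle transcriptional repressor (0.115). Whi5 averaged 14.97 CPM in the mutant and 9.83 CPM in wt (log2 fold change 0.61, edgeR adjusted p = 0.148). Nrm1 was nearest to SPBC11C11.06c (0.0451) and hrd302 (0.0470), and res2 to the sorting nexin gene atg20 (0.0465) and SPCC306.11 (0.0477). The level genes resembled other level genes: cdc10 lay nearest lsd2 and sec10, res1 nearest cog1 and pdk1, and rep2 nearest SPBC1703.09 and tea1, all at 0.0402 or less.

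The members were also compared with each other by this measure. Rep2 and res1 were the most alike (0.0911), followed by cdc10 with rep2 (0.121) and with res1 (0.127). Yox1 was closest to nrm1 (0.239) and rep1 to res2 (0.203), but neither match was mutual. Nrm1 lay closer to cdc10 (0.192), res2 (0.195) and rep2 (0.202) than to yox1, and res2 lay closer to nrm1 than to rep1. The root mean square of a gene's own centred values was 0.199 for nrm1, 0.403 for yox1, 0.0650 for cdc10 and 0.0810 for rep2. These distances therefore mix the size of the changes with their direction. They do not show that nrm1 follows cdc10 or rep2 rather than yox1. The least alike were res1 and rep1 (0.551).

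Some MBF targets rose in the mutant. Of 17 listed targets, members left out, 14 were tested, and 5 rose and 0 fell at an edgeR adjusted p under 0.05, against 2.29% of all tested features called higher. Mrc1, psm3 and ctp1 are listed at 0 in every library. The median log2 fold change of the tested targets was 0.51, with 11 positive and 3 negative. In 11 targets every mutant library lay above every wt library, and in 1, eso1, every mutant library lay below, against 16.7% and 13.8% of all tested features. The list was drawn up with earlier results of these data known.

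The 5 targets that passed were cdt1, cdc22, tos4, msh6 and ssb1. The replication licensing gene cdt1 rose with 160, 148 and 165 CPM in the mutant against 73.9, 59.1 and 68.9 CPM in wt (log2 fold change 1.23, adjusted p = 0.00639). Cdc22, the large subunit of ribonucleotide reductase, had 1609, 1550 and 1597 CPM in the mutant and 724, 844 and 758 CPM in wt (1.03, adjusted p = 0.0107). Tos4 rose by 0.85 (SE 0.145; adjusted p = 0.0415). Msh6, a mismatch repair gene, rose by 0.82 (SE 0.114; adjusted p = 0.0234), and ssb1, which encodes a subunit of replication protein A, by 0.48 (SE 0.0758; adjusted p = 0.0332), all in edgeR on the log2 scale.

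Cdc18 and cig2, among the best known targets, did not pass. The licensing gene cdc18 had 76.9, 61.8 and 91.3 CPM in the mutant and 43.8, 55.2 and 41.8 CPM in wt, a difference of 0.71 on the log2 scale (SE 0.172; adjusted p = 0.0788 in edgeR). Like yox1, it was highest in mutant replicate 3 and wt replicate 2. The S-phase cyclin gene cig2 averaged 20.7 ± 1.27 CPM in the mutant and 16.8 ± 0.974 CPM in wt (SD, n = 3 each; log2 fold change 0.30, adjusted p = 0.193). The targets ranged from −0.19 for eso1 to 1.23 for cdt1. All 7 members and the median of all tested features lay within that range, so it does not set yox1 and nrm1 apart. With mutant replicate 2, wt replicate 1 or wt replicate 3 left out, edgeR called 0 of the 14 targets and 0 of all tested features. In these fits 9, 9 and 8 targets had an unadjusted p under 0.05, against 932 of 4962, 809 of 5022 and 678 of 5018 features. With mutant replicate 1 left out, 2 targets passed, among 17 of 4964 features called.

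**Figure D4:**
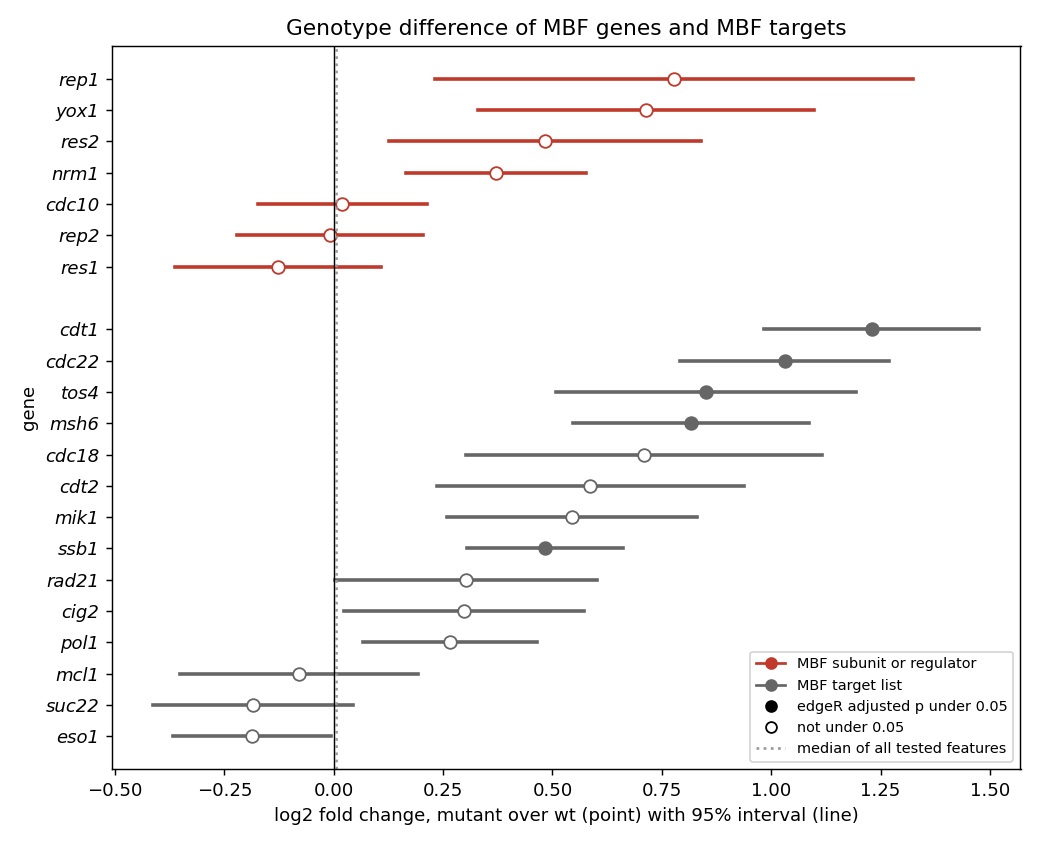
Log2 fold change of mutant over wt (x axis) with its 95% interval for the 7 MBF genes (red) and the 14 tested MBF targets (grey), where filled points have an edgeR adjusted p under 0.05. Rep1, yox1, res2 and nrm1 have intervals above 0 with open points, and 5 targets have filled points, from 0.48 to 1.23.

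Among genes upstream of MBF a single call was made. Of 12 kinases, cyclins and inhibitors that act on MBF or on entry into S phase, 1 was higher and 0 lower, against 2.29% and 0.121% of all tested features, with 4 positive and 8 negative log2 fold changes and a median of −0.01. The 1 call was ste9, an activator of the anaphase-promoting complex in G1, at 42.9, 37.7 and 31.5 CPM in the mutant against 22.0, 16.2 and 19.7 CPM in wt (0.95 on the log2 scale, SE 0.166; adjusted p = 0.0418 in edgeR). That call was lost when any single library but mutant replicate 3 was left out (adjusted p between 0.0588 and 0.198). Cds1 and chk1, the checkpoint kinase genes, had log2 fold changes of −0.02 and −0.01, and rad3 one of −0.03.

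Of the genes for factors and regulators of the other transcription waves of the cycle, 5 were tested. The edgeR test called 0 of them, against 2.29% of all tested features called higher, with 1 higher at an unadjusted p under 0.05, against 14.5%. DESeq2 and limma voom also called 0, against 7.35% and 1.6% of features called higher. Counts of 0 called among 5 genes are near these shares. In 3 of the 5 (fkh2, ams2 and plo1) every mutant library lay above every wt library, against 16.7% of all tested features. The median log2 fold change of the 5 was 0.30, the value of plo1, which encodes a kinase and not a transcription factor. The forkhead gene fkh2 had the smallest p, with 110.2 ± 20.8 CPM in the mutant and 81.0 ± 2.56 CPM in wt (SD, n = 3 each; log2 fold change 0.44, edgeR adjusted p = 0.130), and sep1 had a log2 fold change of −0.09.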

How the data were processed

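For each library the authors deposited a table of raw counts, 1 row per transcript identifier, from paired-end sequencing of oligo-dT selected RNA (5 µg of total RNA, per the labels). The submitters' processing notes name the build ASM294v2 and the tools HISAT2, HTSeq and DESeq2. Their versions, the annotation release and any strand setting are not given in the sources used. The authors also deposited a comparison table with log2 fold changes, p-values, adjusted p-values, standard errors (other), Wald scores and a mean normalized signal. Its direction is not stated and was read off csi1. A further 18 columns of normalized values were not used.

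Names, chromosomes, lengths and overlaps came from the annotation of ASM294v3, which matched 6847 of 7269 features. The counts were tested with edgeR 4.0.16 in R 4.3.3 (robust quasi-likelihood, TMM, filterByExpr with a minimum count of 10 and total of 15, genotype as the only term). P-values were adjusted by Benjamini-Hochberg over all 4941 tested features. The procedure was tested on simulated data. DESeq2 1.42.0, limma 3.58.1 voom, other scalings and filters, a replicate block and left-out libraries were alternatives. Standard errors follow from the test statistic, and intervals are 95%.

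The genes and lists were chosen with earlier results of these data known. Named are the 7 genes, csi1, sad1, up to 5 called genes of smallest adjusted p per list, cdc18, cig2, and the 2 genes nearest each member; others named were chosen after their values were seen. A gene left out of the lists is not reported here.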

Additional observations from a re-analysis of the deposited data

How the results depend on the processing

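The called features numbered 119, and 76 with a filter of 5 CPM in 3 libraries, 36 with protein-coding genes only, 515 with DESeq2, 0 with the replicate block, 1025 without wt replicate 2 and mutant replicate 3, and from 0 to 151 with single libraries left out. Of the 7 MBF genes, 0 were called, against 2 (nrm1 and yox1) with library size alone, 3 with DESeq2, 5 without those 2 libraries and 0 to 1 with single libraries left out. Library size alone moved the median log2 fold change of all features to 0.13, so nrm1 and yox1, at 0.49 and 0.84, are to be read relative to that shift. The log2 fold changes of yox1, nrm1, rep1 and res2 were positive in all 17 fits and those of res1 negative. Cdc10, at 0.02, was at −0.053 without wt replicate 2 and mutant replicate 3, and lay between −0.050 and 0.055 with single libraries left out. Rep2, at −0.01, was at 0.11 with library size alone, 0.015 with the 5 CPM filter, 0.015 with protein-coding genes only and 0.033 with the weak-gene background subtracted, and lay between −0.080 and 0.032 with single libraries left out. Of the MBF targets 5 were called, against 0 with the replicate block, 8 with DESeq2, 10 without the 2 libraries and 0 to 4 with single libraries left out. The upstream list kept its count of 1 or had 0 (library size alone, protein-coding genes only, replicate block, background subtracted, and 0 to 1 with single libraries left out), and the other factors had 1 without the 2 libraries. Over 272 refits of single named genes, 206 kept direction and call, 44 lost the call and 13 gained it with the direction kept, and 9, all of cdc10 or rep2, turned direction. The cause of these shifts was not tested. Replicate numbers did not pair the libraries: same-numbered libraries had deviations correlated at 0.444, −0.493 and −0.535, and not every library matched its own number best. The background subtraction, the choice of weak genes by their mean over all libraries and the coding-length order were chosen after seeing the data. Rep1, with 77 to 273 counts per library, is the member whose precision counting limits most.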
